A study of Mus musculus with 37 samples.

Results

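The data describe 10 T cell and cytotoxic genes in the bulk RNA libraries of a mouse model of upper tract urothelial carcinoma. The genes are Cd3d, Cd3e, Cd3g, Cd4, Cd8a, Gzma, Gzmb, Prf1, Foxp3 and Nkg7, and they were chosen by name as markers of T cells and cytotoxic lymphocytes. All 10 were among the 24421 gene symbols of the count table, and all 10 passed the filter on low counts in every comparison. The mice were female BALB/c of wild-type genotype. BBN, a nitrosamine carcinogen of the urothelium, was given in the drinking water of 10 mice, and 3 untreated mice received tap water, for 18 weeks. UT is the ureter on the cancer side in BBN mice (11 libraries from 10 mice, since both ureters of mouse 5 were cancerous), and UN is the ureter on the noncancer side (7 libraries from 7 mice). U is the ureter of untreated mice (6 libraries, the left and the right of 3 mice). Bladder was sequenced from all 10 BBN mice and all 3 untreated mice. The sample labels do not give the age of the mice. UN is not untreated tissue, since the same mouse drank BBN and carried a tumor on its other side.

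Cd3d, Cd3e and Cd3g encode the invariant chains of the T cell receptor complex, which carry its signal into the cell. Cd4 and Cd8a encode the coreceptors that mark helper and cytotoxic T cells. Foxp3 is the transcription factor that defines regulatory T cells, which restrain other T cells. Gzma and Gzmb encode granzymes, Prf1 encodes perforin, the pore protein through which granzymes enter a target cell, and Nkg7 encodes a granule protein of cytotoxic T cells and natural killer (NK) cells. The granule genes are thus shared by T cells and NK cells, and granzyme B is also made by some mast cells. In a bulk library, more cells of a type and more RNA per cell cannot be told apart.

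The 3 Cd3 genes are neighbours on chromosome 9 (coordinates of GENCODE vM21 on GRCm38). Cd3g (44969572 to 44980431, minus strand) and Cd3d (44981786 to 44987339, plus strand) start 1355 bases apart and point away from each other, and Cd3e follows at 44998740 to 45009627 on the minus strand. Cd4 (124864692 to 124888221, minus) and Cd8a (71373427 to 71379173, plus) are on chromosome 6. Gzma is on chromosome 13 (113093825 to 113100981, minus), Gzmb on chromosome 14 (56258838 to 56262260, minus), and Prf1 on chromosome 10 (61297833 to 61304680, plus). Nkg7 is on chromosome 7 (43437073 to 43438249, plus) and Foxp3 on chromosome X (7573644 to 7595245, plus). The 250 bases before the annotated start are printed for the Cd3 genes, because their levels were high and low in the same UT libraries, and for Gzmb, because its level followed other genes. They come from RefSeq on GRCm38.p6 and read 5′ to 3′, and capitals mark matches on either strand to the letters searched:
Cd3d, chr9:44981536-44981785, plus strand: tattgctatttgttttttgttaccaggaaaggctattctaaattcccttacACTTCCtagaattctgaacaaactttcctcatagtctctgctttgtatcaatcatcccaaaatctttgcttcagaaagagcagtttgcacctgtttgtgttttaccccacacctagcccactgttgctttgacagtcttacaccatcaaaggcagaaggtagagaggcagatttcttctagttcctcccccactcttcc
Cd3e, chr9:45009612-45009861, minus strand: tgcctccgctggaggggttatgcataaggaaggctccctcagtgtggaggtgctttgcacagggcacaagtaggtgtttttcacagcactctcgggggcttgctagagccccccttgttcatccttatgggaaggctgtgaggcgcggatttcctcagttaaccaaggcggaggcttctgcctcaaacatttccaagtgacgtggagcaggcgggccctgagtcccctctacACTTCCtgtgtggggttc
Cd3g, chr9:44980432-44980681, minus strand: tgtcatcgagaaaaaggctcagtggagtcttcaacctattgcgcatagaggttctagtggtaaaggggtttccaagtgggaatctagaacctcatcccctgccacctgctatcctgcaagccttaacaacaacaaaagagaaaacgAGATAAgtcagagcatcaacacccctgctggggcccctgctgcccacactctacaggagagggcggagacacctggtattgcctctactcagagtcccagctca
Gzmb, chr14:56262335-56262584, minus strand: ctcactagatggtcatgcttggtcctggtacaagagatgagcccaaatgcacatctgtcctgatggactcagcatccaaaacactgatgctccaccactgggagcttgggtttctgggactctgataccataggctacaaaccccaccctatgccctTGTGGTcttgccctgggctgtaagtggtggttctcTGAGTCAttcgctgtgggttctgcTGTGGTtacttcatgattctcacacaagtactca
The letters searched for RUNX factors, which act in many blood lineages, were TGTGGT. For the ETS family they were GGAAGT, and AGATAA stood for the GATA family. For the AP-1 family, whose members respond to receptor signals, they were TGANTCA, and the T-box family was searched by the letters GGTGTGA. Cd3d and Cd3e each held 1 ETS match, which reads ACTTCC on the strand printed, and Cd3g held 1 GATA match. The Gzmb window held 2 RUNX matches and 1 AP-1 match. Of 32851 promoter windows of the same length, 19.7% held the ETS letters, 9.99% the GATA letters, 14.0% the RUNX letters, 6.75% the AP-1 letters and 3.33% the T-box letters. Promoter windows were matched for 9 of the 10 genes, all but Cd4.

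Library totals ranged from 3557697 to 18793560 counts. The UT library of mouse 9 and the bladder library of BBN mouse 6 were left out of the main fits, which hold 10 UT and 9 BBN bladder libraries, and were added as alternatives. Some libraries stood apart from their group. UN 2 held 24.9 CPM (counts per 1000000 counts of the library) summed over 10 urothelium genes, while the other 6 UN libraries held 661 to 6760, so the defining genes of the labelled tissue were near 0 in it. UT 4 held 2250 CPM over 7 kidney tubule genes, against 1.65 to 10.8 in the other 9 UT libraries. Over the 10 T cell and cytotoxic genes, UT 6 held 252 CPM and UT 10 held 7.51. A gene was called at an edgeR FDR under 0.1 over all genes tested with a fold change of at least 2.

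Genes of the T cell receptor complex, Cd4 and Foxp3 were higher in UT than in U, and no granule gene passed the test. The comparison asks how the tumor-bearing ureter of BBN mice differs from untreated ureter. With edgeR, 5 of the 10 genes were called higher (Cd3d, Cd3e, Cd3g, Cd4 and Foxp3) and 0 lower. The background over all 15615 genes tested was 18.6% called higher and 14.4% called lower. The median log2 fold change was 1.29 over the 10 genes and 0.0772 over all genes. The plot of levels by library shows how unequal the UT libraries were.

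**Figure D1:**
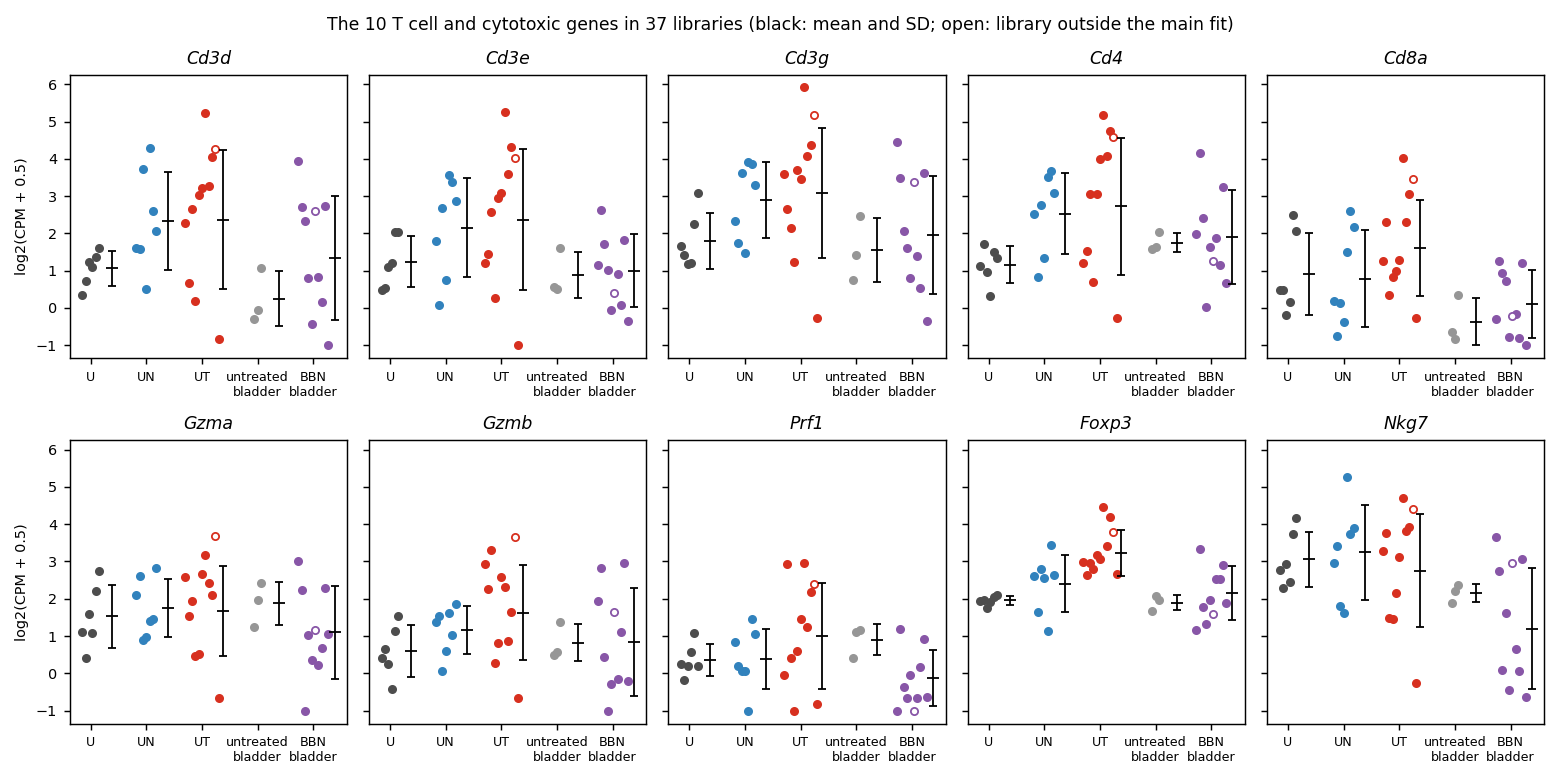
Level of each of the 10 genes as log2(CPM + 0.5) in every library of the 5 groups, 1 point per library, with group mean and SD in black and libraries outside the main fits as open points. UT 6 is the highest UT point and UT 10 the lowest in most panels, and Foxp3 is the gene for which all UT points of the main fit (5.76 CPM and more) lie above all U points (3.81 CPM and less).

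Cd3e, the signalling chain most often used to mark T cells, was 0.904 CPM at the lowest, 1.72 at the median and 3.62 at the highest of the 6 U libraries. In the 10 UT libraries it was 0.00 at the lowest (UT 10), 6.33 at the median and 37.5 at the highest (UT 6). The count of 0 in UT 10 allows up to 0.198 CPM, counting error only. In all, 6 UT libraries lay above every U library, and the groups overlapped. The log2 fold change was 1.79 ± 0.87 (SE, edgeR FDR 0.0941).

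Cd3d ranged from 0.765 through a median of 1.74 to 2.56 CPM in U and from 0.0661 through 6.74 to 36.8 CPM in UT. Its log2 fold change was 2.06 ± 0.86 (SE, edgeR FDR 0.054). Cd3g ranged from 1.76 through 2.41 to 8.01 CPM in U and from 0.331 through 11 to 59.8 CPM in UT, with a log2 fold change of 1.67 ± 0.73 (SE, edgeR FDR 0.0635). For all 3 Cd3 genes the lowest UT library was UT 10 and the highest was UT 6, so the UT group reached both below and above the whole U range.

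Cd4, the helper T cell coreceptor that macrophages can also express, was 0.743 CPM at the lowest, 1.84 at the median and 2.81 at the highest in U. In UT it was 0.334, 7.86 and 35.4 CPM. The log2 fold change of 2.28 ± 0.75 (SE, edgeR FDR 0.0166) was the highest of the 10 genes. For Cd4 too, 6 of the 10 UT libraries lay above every U library. Cd8a, the cytotoxic coreceptor, was 0.372, 0.898 and 5.16 CPM in U and 0.331, 1.93 and 15.6 CPM in UT (log2 fold change 0.69 ± 0.80, SE, edgeR FDR 0.5). The high U values of Cd8a came from both ureters of 1 mouse, 5.16 CPM in U 3R and 3.65 CPM in U 3L, while the other 4 U libraries held 0.372 to 0.904 CPM.

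The granule genes gave no call in UT against U. Gzmb was 0.248 CPM at the lowest, 0.959 at the median and 2.41 at the highest in U, and 0.132, 3.45 and 9.32 CPM in UT. Its log2 fold change of 1.33 ± 0.66 (SE, edgeR FDR 0.103) lay just outside the threshold. Unlike the Cd3 genes, Gzmb was highest in UT 3, where Cd3e was 5.42 CPM, and only 4.45 CPM in UT 6. Prf1 was 0.382, 0.673 and 1.62 CPM in U and 0.00, 1.43 and 7.26 CPM in UT (log2 fold change 1.26 ± 0.78, SE, edgeR FDR 0.19). It was high in UT 6 (7.26 CPM) and UT 2 (7.13 CPM) and below 5 CPM in the other 8. Gzma had a median of 2.09 CPM in U and 3.58 in UT (log2 fold change 0.00 ± 0.59, SE, edgeR FDR 0.998), and Nkg7 had 6.73 in U and 8.74 in UT (log2 fold change -0.27 ± 0.67, SE, edgeR FDR 0.761). In untreated ureter both genes were highest in U 3L, at 6.25 CPM for Gzma and 17.4 CPM for Nkg7, and next highest for both was the other ureter of that mouse.

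Foxp3 had the lowest FDR of the 10 genes. It was 2.87 CPM at the lowest, 3.36 at the median and 3.81 at the highest in U, and 5.76 (UT 2), 7.61 and 21.4 CPM (UT 6) in UT. All 10 UT libraries lay above all 6 U libraries, and the log2 fold change was 1.19 ± 0.30 (SE, edgeR FDR 0.00262). No other member had these groups apart, and how many of all genes did was not counted. Foxp3 shares 590 of its 4577 exon bases with Ccdc22, a gene of the opposite strand that encodes a coiled-coil protein of endosomal sorting, and 853 with Flicr, a noncoding gene of its own strand. The sources do not say whether counting used strand, and the Foxp3 values were fractional in 18 of 37 libraries, more than for any other member, so they may hold reads of Ccdc22. Ccdc22 itself was 1.28 to 25.2 CPM over the 37 libraries and its log2 fold change in UT against U was 0.14 ± 0.26 (SE, edgeR FDR 0.688). In UT 10, with 0.00 CPM of Cd3e, Foxp3 was still 5.79 CPM and Ccdc22 was 25.2 CPM, the highest of all libraries. The part of overlapping reads in the Foxp3 values was not tested.

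These calls depended on the library and the tool. Without UT 6, 1 gene was called (Cd4), and the log2 fold change of Cd3e was 1.22 and of Foxp3 0.99 (edgeR FDR 0.00435, below 2-fold). Over all genes 2912 of 15609 were called higher in that fit, so 1 of 10 members was not above the background. Without U 1R, 2 genes were called, and without U 1L, U 2R or U 2L 3 each, while 7 were called without UT 4, Gzmb and Prf1 among them. limma-voom called 1 gene (Foxp3), with smaller log2 fold changes of 0.96 for Cd3d, 0.65 for Cd3e, 1.03 for Cd3g and 1.41 for Cd4 and a median of 0.783 over the 10 genes. It called 2456 of all 15615 genes higher, so 1 of 10 members was not above the background there either. DESeq2 called 6 (the same 5 genes and Gzmb), with 2923 of 15612 genes called higher. The same 6 were called with all 11 UT libraries, where the median log2 fold change of the 10 genes was 1.55, and in the first range of sample codes, and 4 were called with no filter on low counts (Cd3d, Cd3g, Cd4 and Foxp3). Over the 23 fits that each left out 1 library, Cd3e lost its call in 11 (all 4 ureters of untreated mice 1 and 2, UN 3, UN 9, UT 5L, UT 5R, UT 6, UT 7 and UT 8), Cd3g in 5 (the same 4 ureters and UT 6), Cd3d in 2 (U 1R and UT 6) and Foxp3 in 1 (UT 6). Cd4 was called in all 23, and Gzmb gained a call in 8.

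**Figure D2:**
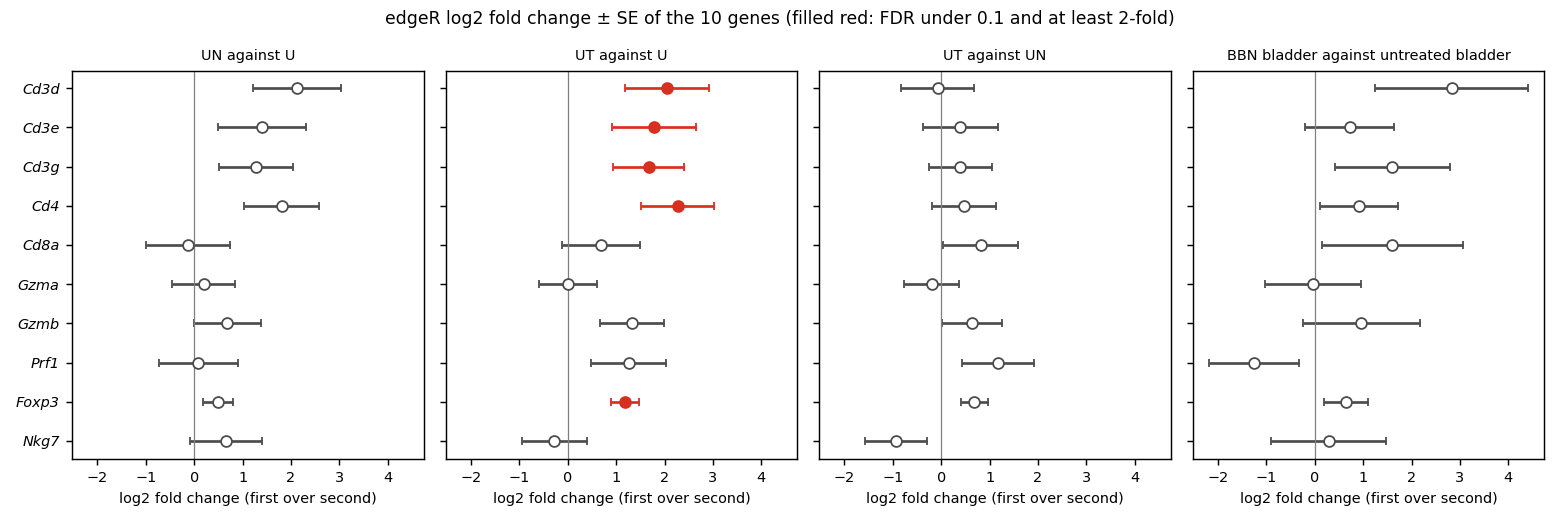
edgeR log2 fold change with its SE for the 10 genes in 4 comparisons, with called genes filled in red. Filled points appear in UT against U (Cd3d, Cd3e, Cd3g, Cd4 and Foxp3), and none in UN against U, UT against UN or the bladder.

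UN against U asks what BBN exposure did to the ureter that bore no tumor, and 0 of the 10 genes were called by edgeR. Cd3d and Cd4 had an unadjusted p under 0.05. DESeq2 called these 2 genes, where it called 2080 of 15612 genes higher, and limma-voom called 0. By edgeR, 11.9% of all genes were called higher and 1.65% lower, and the median log2 fold change was 0.674 over the 10 genes and 0.0812 over all. Cd3d was 0.912 CPM at the lowest (UN 4), 3.67 at the median and 18.9 at the highest (UN 6), with a log2 fold change of 2.12 ± 0.91 (SE, edgeR FDR 0.12). Cd4 was 1.28, 6.31 and 12.3 CPM, with a log2 fold change of 1.81 ± 0.78 (SE, edgeR FDR 0.121). Cd8a gave the smallest value, a log2 fold change of -0.13 ± 0.86 (SE, edgeR FDR 0.939), at a UN median of 0.642 CPM. Cd8b1, the other chain of the CD8 coreceptor, had medians of 0.728 CPM in U and 2.86 CPM in UN (log2 fold change 0.74 ± 0.80, SE, edgeR FDR 0.566). The log2 fold changes of both chains were smaller than their SE. Without UN 4 or without UT 10, which shares the fit, edgeR called both Cd3d and Cd4, and without UN 2, UN 9 or UT 6 it called 1 gene. Without UN 6, whose RIN (RNA integrity number) was under 5, no member was under 0.05 before adjustment, and the log2 fold change was 1.32 for Cd3d and 1.44 for Cd4. No member was under 0.05 with limma-voom or with RIN as a covariate either. Within the first range of sample codes, which leaves out UN 9, UT 8 and UT 10 here, edgeR called Cd3d and Cd4, with 2084 of 15496 genes called higher.

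UT against UN sets tumor side against noncancer side in BBN mice, and no member was called by edgeR, DESeq2 or limma-voom. The share of all genes called was 2.80% for higher and 7.97% for lower levels in UT. That background depended on the fit: of 15615 genes 438 were called higher and 1245 lower, against 0 and 0 of 15048 with the mouse as a block, 1 and 0 of 15048 on UT and UN libraries alone, 0 and 0 with RIN as a covariate, and 168 and 367 of 15567 without UN 6. By edgeR 1 member, Foxp3, had an unadjusted p under 0.05, with a log2 fold change of 0.69 ± 0.28 (SE, edgeR FDR 0.106). Foxp3 in UN was 1.71 CPM at the lowest, 5.62 at the median and 10.3 at the highest, so it overlapped with UT. The largest log2 fold change was that of Prf1 (1.17 ± 0.73, SE, edgeR FDR 0.283) and the smallest that of Nkg7 (-0.94 ± 0.64, SE, edgeR FDR 0.329). Prf1 was 0.08 with limma-voom and 0.57 with the mouse as a block. In the blocked fit Cd8a was the largest instead, at 1.54 ± 0.61 (SE, edgeR FDR 0.788), and the only member under 0.05 before adjustment, while Foxp3 was 0.64 ± 0.38 (SE, edgeR FDR 0.788). The Nkg7 value rested on UN 6, as it was -0.04 without UN 6 and -0.33 without UT 6 and UN 6. It was also smaller, at -0.28, with the block, which keeps UN 6. Nkg7 was 37.6 CPM in UN 6, the highest value of any library, where Prf1 was 0.00 CPM, which allows up to 0.642 CPM. UN 6 was the shallowest ureter library, with 4675081 counts.

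Mice with both a UT and a UN library allowed the sides to be compared within a mouse, 6 of them with the libraries of the main fit and 7 with mouse 9. Foxp3 and Cd8a were each higher on the tumor side in 5 of 6 mice. The mean difference in log2(CPM + 0.5) was 0.84 ± 1.26 (SD, n = 6) for Foxp3, with an exact two-sided sign-flip permutation p of 0.0625 (0.417 adjusted over the 10 genes), and 1.29 ± 1.3 (SD, n = 6) for Cd8a, with an exact permutation p of 0.0938 (0.417 adjusted). The smallest p that 6 mice allow is 0.0312. Foxp3 was lower in UT in mouse 7 only, and Cd8a likewise. Gzmb was higher in UT in 4 of 6 mice (mean difference 0.96 ± 1.31, SD), and Cd3d in 3 of 6 (mean difference -0.00 ± 0.87, SD). Adding mouse 9, Foxp3 and Cd8a were higher in 6 of 7 mice, with exact permutation p of 0.0312 and 0.0469 (both 0.208 adjusted). Mouse 6 showed the widest gap of Cd3e, 11.3 CPM in UN and 37.5 CPM in UT.

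**Figure D3:**
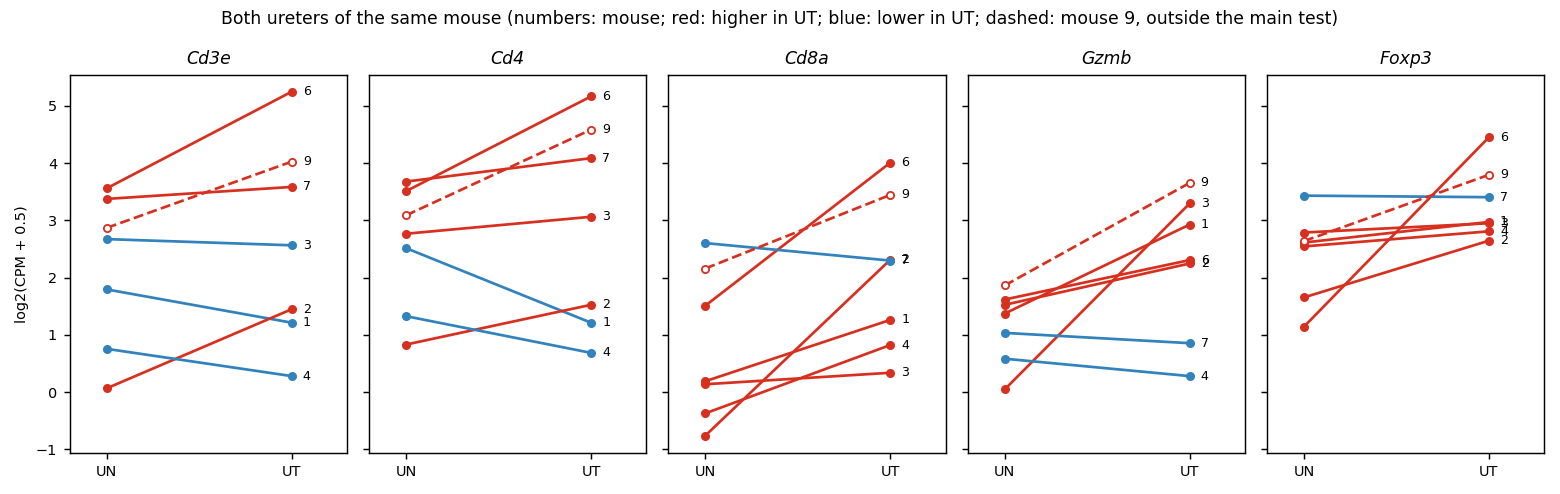
Levels of Cd3e, Cd4, Cd8a, Gzmb and Foxp3 as log2(CPM + 0.5) in the UN and UT ureter of the same mouse, 1 line per mouse, red where UT was higher, blue where it was lower, and dashed for mouse 9. Cd8a and Foxp3 are higher in UT in all mice but mouse 7, whereas Cd3e is higher in UT in 3 of the 6 mice of the main test.

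In the bladder the 10 genes were not called between BBN and untreated mice by edgeR, and 0 had an unadjusted p under 0.05. DESeq2 called 1 (Cd3d) and limma-voom 0. Over all genes DESeq2 called 4430 of 17971 higher and 1156 lower, so 1 of 10 members was below its own background. By edgeR, 7.08% of 17984 genes were called higher and 5.47% lower, and the median log2 fold change was 0.819 over the 10 genes and 0.233 over all. The median over the 10 genes was 0.0781 with limma-voom, with 5 of 10 above 0, and it was 0.53 without BBN bladder 2 and 1.21 without untreated bladder 3. Cd3d was 0.314, 0.466 and 1.62 CPM in the 3 untreated bladders and 0.00 CPM at the lowest (BBN bladder 10, allowing up to 0.216 CPM), 1.28 at the median and 15.0 at the highest (BBN bladder 1) of 9 BBN bladders. Its log2 fold change was 2.83 ± 1.58 (SE, edgeR FDR 0.243). It was 1.99 without BBN bladder 1, 3.86 without untreated bladder 3, 1.51 without the 3 BBN bladders of RIN under 5, of which BBN bladder 1 is one, and 0.81 with limma-voom. Prf1 had the lowest log2 fold change, -1.25 ± 0.93 (SE, edgeR FDR 0.382), at 0.836, 1.67 and 1.75 CPM in untreated bladders and a median of 0.281 CPM in BBN bladders. BBN bladders 1, 2 and 9 held the most Cd3g, at 21.2, 10.7 and 11.8 CPM, against 0.288 to 3.65 CPM in the other 6. The ureter and bladder responses to BBN (UN against U, and BBN against untreated bladder) were also compared with each other, and edgeR, DESeq2 and limma-voom called 0 members for a difference, with 0 members at an unadjusted p under 0.05 by edgeR. Of 18757 genes, 1.65% were called with the higher and 0.682% with the lower response in ureter. The values at either end were Prf1 (1.33 ± 1.08, SE, edgeR FDR 0.645) and Cd8a (-1.66 ± 1.57, SE, edgeR FDR 0.698). Ureter and bladder came from the same mice, and with the mouse as a block 0 members were called, while 2 fell under 0.05 before adjustment, Cd8a (-3.31 ± 1.3, SE, edgeR FDR 0.158) and Cd3d (-2.04 ± 0.89, SE, edgeR FDR 0.189). Cd3e went from 0.68 without the block to -0.60 with it, and Nkg7 from 0.34 to -0.47. The median over the 10 genes was 0.0717 without the block, -0.328 with it, 0.862 with limma-voom and 0.776 without the BBN bladders of RIN under 5, so it had no stable direction.

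Untreated ureter and untreated bladder came from the same 3 mice. Without regard to the mouse, edgeR called 0 members, with 0 at an unadjusted p under 0.05, DESeq2 called 1 (Cd8a) and limma-voom 0, where 7.04% of all genes were called higher and 8.73% lower in U. With the mouse as a block over those 9 libraries, 3 members were called higher in U, at 15.6% of all genes. Cd8a was 0.0666, 0.139 and 0.782 CPM in the bladders and 0.372 to 5.16 CPM in U, with a blocked log2 fold change of 2.93 ± 0.39 (SE, edgeR FDR 9.37e-05), against 2.80 ± 1.41 (SE, edgeR FDR 0.227) without the block. The blocked log2 fold change was 1.59 ± 0.37 (SE, edgeR FDR 0.00371) for Cd3d and 1.39 ± 0.28 (SE, edgeR FDR 0.0016) for Nkg7. The blocked fit counts the left and the right ureter of a mouse as separate libraries. Its FDRs thus rest in part on the spread between ureters of a mouse and overstate what 3 mice show. Nkg7 was 3.21, 4.13 and 4.69 CPM in the bladders and 4.40 to 17.4 CPM in U. For Cd8a and Nkg7 mouse 3 was the highest in both organs.

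The order of the groups by median was not the same for every gene. Cd3e ran from UT (6.33 CPM) and UN (5.88) to U (1.72), BBN bladder (1.53) and untreated bladder (0.976). Prf1 ran from untreated bladder (1.67 CPM) and UT (1.43) to U (0.673), UN (0.64) and BBN bladder (0.281). Over the 10 genes there were 40 pairs of neighbours in these orders, of which 3 had an exact permutation p under 0.05 and 0 passed adjustment (lowest adjusted p 0.635). By this test no neighbouring pair was set apart beyond the spread between libraries. Per kilobase of exon, Nkg7 was the most abundant of the 10 genes in ureter, with a median of 7.36 CPM per kilobase in U, 11.2 in UN and 9.56 in UT. Cd8a was the least abundant in all 3 groups, with medians of 0.247, 0.177 and 0.529 CPM per kilobase.

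The balance between members was compared as the log2 ratio of 2 genes in a library. For Cd3e over Ptprc, which encodes the CD45 of all leukocytes, the 10 UT libraries had a mean of -3.63 ± 0.91 (SD), the 7 UN libraries -3.54 ± 1.12 and the 6 U libraries -3.59 ± 0.66, which are close together. Ptprc itself rose in UT against U (log2 fold change 1.35 ± 0.50, SE, edgeR FDR 0.0298). For Cd8a over Cd4 the mean was -0.24 ± 0.95 (SD) over the 6 U libraries, -1.75 ± 0.62 over the 7 UN libraries and -1.12 ± 1.27 over the 10 UT libraries. The difference of -1.51 in UN against U had an exact permutation p of 0.00699 and 0.14 after adjustment over 20 tests of 5 ratios. With 1 value per mouse its exact permutation p was 0.0333 (0.667 adjusted). The higher median of Cd8b1 in UN than in U stands beside this ratio. The ratio of Gzma over Gzmb was 0.93 ± 0.64 (SD, n = 6) in U and 0.05 ± 0.82 (SD, n = 10) in UT, with an exact permutation p of 0.04 (0.4 adjusted), and with 1 value per mouse 0.136 (0.791 adjusted). No ratio passed the adjustment, and the Foxp3 over Cd3e and Gzmb over Cd3e ratios had exact permutation p of 0.394 and more.

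Among the UT libraries, averaged to 9 mice, the T cell genes followed Cd3e closely. Cd4 had a Pearson r of 0.991 and a Spearman rho of 1.0 with Cd3e (exact permutation p 2.76e-06 and 5.51e-06, adjusted over 18 relations 4.97e-05 and 9.92e-05), and r was 0.993 without the 2 mice farthest from the median of Cd3e. Cd3d had r = 0.968 (0.919 without those 2) and Foxp3 had r = 0.871 (0.828 without them), with adjusted exact permutation p of 0.000248 and 0.00307. Cd8a, Gzma, Prf1 and Nkg7 had r from 0.75 to 0.838, and from 0.486 to 0.562 without the 2 mice. By rank, Nkg7 had rho 0.867 (adjusted exact permutation p 0.0135, as for Foxp3), Prf1 0.817 (0.0243), Cd8a 0.767 (0.0389) and Gzma 0.717 (0.0554). Gzmb had r = 0.486 (rho 0.317, adjusted exact permutation p 0.256 and 0.527) and 0.0277 without them. In the 7 UN mice Cd4 (r = 0.988) and Cd3g (r = 0.958) followed Cd3e with adjusted exact permutation p of 0.00238 and 0.00714. Cd8a had r = 0.856 and rho 0.857 (adjusted exact permutation p 0.0304 and 0.0389), and Cd3d r = 0.763 and rho 0.857 (0.0726 and 0.0389). Foxp3 had r = 0.187, Gzma r = -0.22 and Prf1 r = 0.0516, none of which passed.

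Over all 37 libraries, the genes with the pattern most like Cd3e among 17938 searched were Sh2d2a (r = 0.927), an adaptor of activated T cells, Cd27 (0.921), a costimulatory receptor, Lat (0.917) and Zap70 (0.916), which relay the T cell receptor signal, and Gimap7 (0.907), a lymphocyte GTPase. Among genes other than the 10, those most like Gzmb were Mmp25 (0.724), a membrane metalloprotease, Cd200r4 (0.693), Mcpt1 (0.686) and Mcpt2 (0.681), proteases of mucosal mast cells, and Fcer1a (0.674), the IgE receptor chain of mast cells and basophils. Gzmb was as close to some of the 10 genes, with r = 0.722 for Gzma, 0.676 for Cd3g, 0.62 for Cd4 and 0.616 for Cd3d, and less close to others, with 0.539 for Cd3e and 0.445 for Foxp3. The mast cell protease Cpa3 had r = 0.478 with Gzmb, so not every mast cell gene was near it. Those most like Foxp3 were Rasal3 (0.884), Vav1 (0.878), Parvg (0.878), Hmha1 (0.874) and Fcho1 (0.869), of which Vav1 is a signalling protein of all blood cell lineages. Foxp3 had r = 0.643 with Cd3e, 0.773 with Ptprc and 0.613 with Ccdc22. The libraries share group and depth, so these are descriptions.

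**Figure D4:**
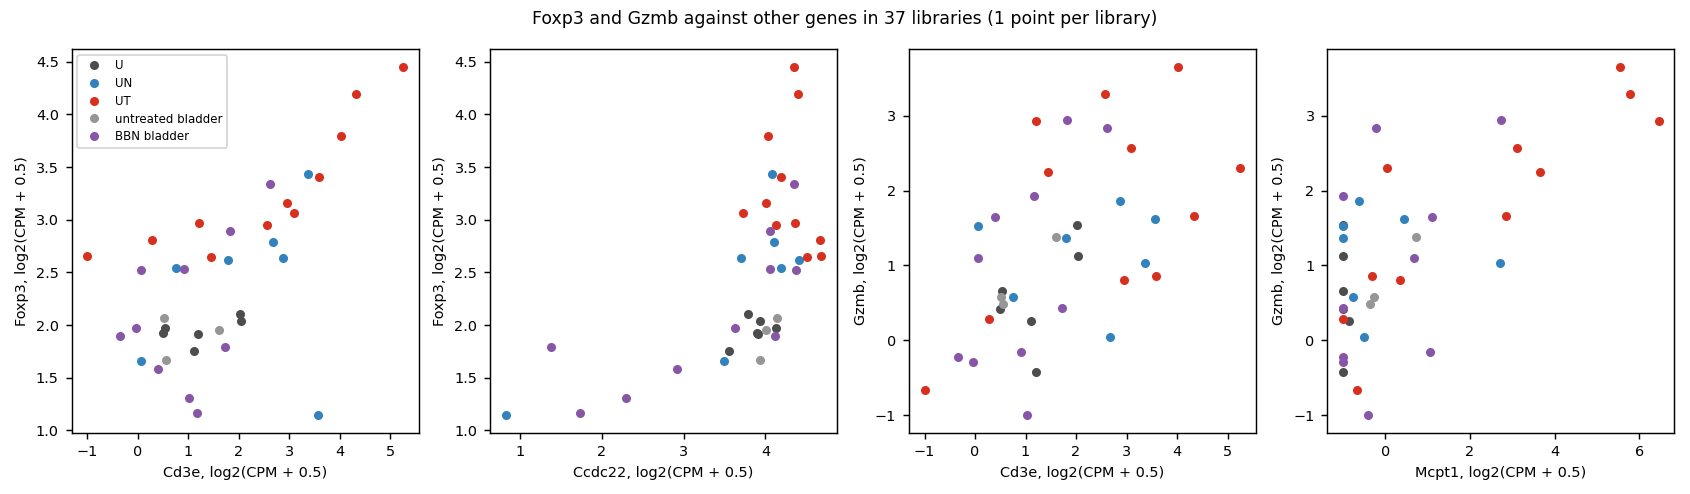
Foxp3 against Cd3e and against Ccdc22, and Gzmb against Cd3e and against Mcpt1, as log2(CPM + 0.5) in 37 libraries, colored by group. Foxp3 is 1.71 CPM at the lowest, also where Cd3e is near 0, and the UT libraries with the most Mcpt1 are those with high Gzmb.

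Gzmb was thus set beside the mast cell genes. In UT 1 and UT 3, where Gzmb was 7.11 and 9.32 CPM, Mcpt1 was 87.3 and 54.7 CPM and the mast cell list summed to 542 and 331 CPM. UT 9, outside the main fit, had 12.1 CPM of Gzmb and 46.5 CPM of Mcpt1. The mast cell list ranged from 38.9 to 542 CPM in UT, 38.5 to 151 in UN and 52.4 to 76.3 in U. In UT against U, 4 of its 10 tested genes were called higher and 1 (Mcpt4, log2 fold change -1.26) lower, where all genes gave 18.6% and 14.4%, and Mcpt1 was 0.00 in 5 of 6 U libraries and 3.72 CPM at the UT median. The part of mast cells in the Gzmb level was not tested.

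Foxp3 was likewise set beside Ccdc22 and RNA quality. There were 4 libraries with under 5 CPM of Ccdc22 (BBN bladders 1, 3 and 4 and UN 6), and their Foxp3 was 1.71 to 2.95 CPM, against 2.49 to 21.4 CPM in the other 33. All 4 were among the 5 libraries with a RIN under 5. UN 6 had the lowest Foxp3 of all libraries, yet the highest Cd3d of the UN group.

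Other genes of the T cell receptor and of costimulation were called in the same comparison as the members. Of 18 genes, 12 were called higher in UT against U, 3 in UN against U, 0 in UT against UN and 1 in BBN against untreated bladder. The shares over all genes called higher were 18.6%, 11.9%, 2.80% and 7.08%, so the counts in UN against U and in bladder lay near the background. The largest log2 fold change of the called genes in UT against U was that of Bcl11b (2.98 ± 0.59, SE, edgeR FDR 0.000407). Bcl11b is a T cell lineage factor that some epithelia also express, and it was 25.5 CPM in UT 10, where Cd3e was at 0. Icos, a costimulatory receptor, had a log2 fold change of 2.91 ± 0.73 (SE, edgeR FDR 0.00267), and Cd5, a T cell surface receptor, 2.57 ± 0.66 (SE, edgeR FDR 0.00323).

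The regulatory T cell list gave a larger share of calls than the members. Of its 10 genes, 8 were called higher in UT against U, 7 in UN against U, 0 in UT against UN and 4 in BBN against untreated bladder. Over all genes the shares called higher in these comparisons were 18.6%, 11.9%, 2.80% and 7.08%. Ctla4, the inhibitory receptor of regulatory and activated T cells, was 0.00 to 0.385 CPM in U, 0.821 to 14.4 CPM in UN and 0.265 to 19.0 CPM in UT. In bladder it was 0.00 to 0.279 CPM in untreated and 0.144 to 6.55 CPM in BBN mice. It was the top called gene of the list in UT against U (edgeR FDR 0.000154), UN against U (edgeR FDR 0.00396) and bladder (edgeR FDR 0.0481). The other end of the called genes was Ikzf2 in UT against U (1.38), Tnfrsf18 in UN against U (1.77) and Capg in bladder (1.41). Capg is an actin-capping protein also of macrophages, and Ikzf2 was 55.8 to 61.1 CPM in untreated bladder, where Ctla4 was 0.279 CPM and less, so not every gene of this list is particular to T cells.

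Of the 21 genes of the cytotoxic and NK list, 11 could be tested in the ureter, and in UT against U 2 were called higher and 1 lower, a share near the 18.6% and 14.4% over all genes. Those higher were Eomes (log2 fold change 2.75 ± 0.63, SE, edgeR FDR 0.00129), a T-box factor of memory CD8 T cells and NK cells, and Srgn (1.93 ± 0.43, SE, edgeR FDR 0.00105), the proteoglycan core of granules in many blood cells. Tbx21, the T-box factor T-bet of type 1 lymphocytes, fell, from a median of 2.86 CPM in U to 0.314 CPM in UT (log2 fold change -1.57 ± 0.66, SE, edgeR FDR 0.054). Ncr1, the NK receptor NKp46, had a median of 4.19 CPM in U and 0.884 CPM in UT (log2 fold change -1.13 ± 0.81, SE, edgeR FDR 0.259). Where all genes gave 11.9%, 2.80% and 7.08%, 2 were called higher in UN against U (Eomes and Srgn), 0 in UT against UN and 2 of 13 in bladder (Srgn and Gzmc, a granzyme at 1.53 CPM and less in BBN bladders).

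Many genes of naive T cells and lymph node, and of B cells, were called higher in UT and in UN against U. The shares of all genes called higher were 18.6% in UT against U, 11.9% in UN against U, 2.80% in UT against UN and 7.08% in bladder, so the lymph node count in bladder is not far from the background. Of 14 genes of the first list, 11 were called higher in UT against U, 7 in UN against U, 0 in UT against UN and 2 in bladder, Cxcl13 among them. Its extremes in UT against U were Glycam1, a mucin of high endothelial venules, with a median of 0.0635 CPM in U and 18.0 CPM in UT, and Tcf7, a factor of naive T cells (log2 fold change 1.86). Of 8 B cell genes tested, 8 were called higher in UT against U, 6 in UN against U, 0 in UT against UN and 0 in bladder. The B cell list summed to 5.81 to 37.4 CPM in U, 28.9 to 300.0 CPM in UN and 8.40 to 787 CPM in UT, where UT 6 was the highest and the next library held 770 CPM. Of 7 neutrophil genes, 7 were called higher in UT against U and in UN against U, and of 10 macrophage genes, 6 in each. Smooth muscle genes went the other way in UT, with 7 of 8 called lower against U and against UN, where all genes gave 14.4% and 7.97%. With the mouse as a block, no gene was called in UT against UN, so the 7 calls against UN were lost there. They were also lost without a block, as 0 genes were called lower on UT and UN libraries alone and with RIN as a covariate. The part of these cell types in the member levels was not tested.

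**Figure D5:**
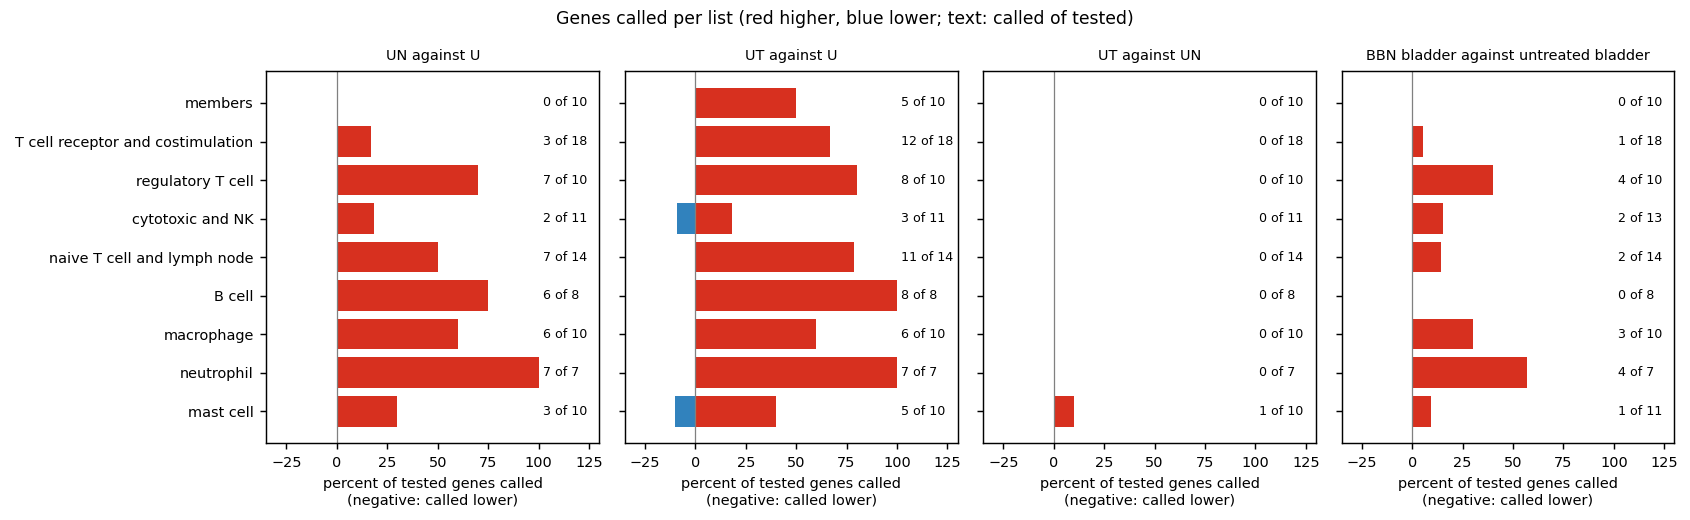
Percent of the tested genes of each list that edgeR called higher (red) or lower (blue) in 4 comparisons, with the number called of those tested. In UT against U the bars reach 12 of 18 for T cell receptor genes, 8 of 10 for regulatory T cell genes and 8 of 8 for B cell genes, but 3 of 11 for cytotoxic and NK genes, 1 of them lower.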

How the data were processed

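Bulk RNA of ureter and bladder was sequenced in 37 libraries (SMARTerHT and NexteraXT libraries). The deposited values are estimated counts for each gene symbol without any normalization, in one table, and 21.1% of its nonzero values were fractional. The submitters' processing notes name TopHat2 2.1.1, Cuffdiff 2.2.1 and GRCm38 (mm10). The counting program and its use of strand are not given in the sources used here. Values were rounded to whole numbers, filtered with filterByExpr, normalized by TMM and tested with the quasi-likelihood test of edgeR 4.0.16 (R 4.3.3) over 10 UT, 7 UN and 6 U libraries, over 9 and 3 bladders, and over UN, U and bladders together. DESeq2 1.42.0 and limma 3.58.1 were alternatives. The procedure was tested on simulated data, where it recovered a smaller share of changed genes in the comparisons with bladder than in those within ureter, so a count of 0 called members says less there. CPM uses the unrounded values. Ratios and within-mouse differences used log2 with a pseudocount of 0.5 CPM and exact permutation tests (scipy), all two-sided. The RNA integrity number and the range of sample codes, both from the study's quality table, served only as a covariate and to split libraries.

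Depth ranged from 3557697 to 18793560 counts, and intervals and limits from counts cover counting error only. The members and lists were chosen with earlier results of these data known. Named were all members, the called gene with the largest and smallest fold change of each list (some are not reported here), and the 5 genes most correlated with Cd3e, Gzmb and Foxp3; Ccdc22, Cd8b1, Icos, Cd5, Srgn, Ncr1 and the libraries singled out were named after their values were seen. The labels' mouse number pairs UT with UN libraries, with a median correlation of deviations of -0.0458 (-0.174 to 0.0493) over 6 pairs. Pairs of different mice had a median of -0.000271 (-0.446 to 0.469) over 64 pairs, so libraries of the same mouse were no more alike by this measure. Any pair of libraries in a group gave a chi-square of 7.72 or more per degree of freedom, so none was counted as a copy. Where replicates are libraries of a mouse, p-values cover only the spread between libraries. The further lists (macrophage, dendritic cell, urothelium, kidney tubule) were used for the makeup of libraries.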

Additional observations from a re-analysis of the deposited data

How the results depend on the processing

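The count of members called changed most in UT against U, where it was 5. It was 1 with limma-voom, 1 with limma-voom and the mouse as a random effect, 2 without UT 6 and UN 6 (chosen after seeing the data), 6 with DESeq2, with all 11 UT libraries and in the first range of sample codes, 4 with no filter on low counts, and 1 to 7 when each library was left out in turn. Over all genes, 2456 of 15615 were called higher with limma-voom, 2431 with the random effect, and 2935 of 15543 without UT 6 and UN 6. The others were 2923 of 15612 with DESeq2, 2921 of 15658 with all 11 UT libraries, 2898 of 15496 in the first range and 3506 of 23702 with no filter. In UN against U the count of members was 2 with DESeq2, 2 in the first range of sample codes, and 0 to 2 when leaving out libraries. It was 1 with DESeq2 in the bladder, and in U against untreated bladder 1 with DESeq2 and 3 with the mouse as a block. The replicate block changed no other count of members, but called 0 of all genes in UT against UN, where the same UT and UN libraries without the block gave 1. The cause was not tested.

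The sign of Gzma in UT against U, main value 0.00, turned with RLE size factors (-0.00399), a filter at 1 CPM (-0.000405), DESeq2 (-0.00449), limma-voom (-0.281), limma-voom with the mouse as a random effect (-0.274), RIN as a covariate (-0.0326) and without UT 6 and UN 6 (-0.219), and it ran from -0.219 to 0.466 when leaving out libraries. Nkg7 turned with RIN as a covariate in UT against UN (0.0666) and when leaving out a library in UT against U (-0.567 to 0.0942), Cd8a in UN against U when leaving out libraries (-0.515 to 0.403), and Prf1 with RIN as a covariate in U against untreated bladder (0.000826). Other members without a call also turned sign. In UT against UN limma-voom gave -0.26 for Cd3e (0.394 with edgeR), -0.0684 for Cd3g (0.398) and -0.0699 for Cd4 (0.466). The mouse as a block gave -0.0351 for Cd4 and 0.324 for Gzma (-0.193), while Cd3d kept its sign (-0.265, against -0.0674). With UT 9 added to the blocked fit, Cd3d turned to 0.0965, and Cd4 was 0.184. Without UT 6, Cd3e was -0.182 and Cd3g -0.217 there. limma-voom gave -0.131 for Nkg7 in UN against U (0.661) and, in bladder, -1.54 for Nkg7 (0.287), -0.0269 for Cd3e (0.727) and -0.0301 for Gzmb (0.963). In the difference between ureter and bladder it gave 0.284 for Cd3d (-0.736), 0.843 for Cd3g (-0.319) and 0.662 for Gzmb (-0.26). RLE moved the median of all genes in the test of the difference between ureter and bladder from -0.118 to -0.224. The mouse as a random effect could not be fitted for the bladders, which hold 1 library per mouse.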

Other observations

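Cxcl13, the chemokine that draws B cells and follicular helper T cells into lymphoid follicles, was among the most abundant genes of the lymph node list. It was 3.31 CPM at the lowest, 4.34 at the median and 25.2 at the highest of the 6 U libraries, 14.4, 260.0 and 637 CPM in the 7 UN libraries and 1.94, 160.0 and 563 CPM in the 10 UT libraries. It rose in UN against U (log2 fold change 4.95 ± 1.04, SE, edgeR FDR 0.00429) and in UT against U (4.62 ± 1.01, SE, edgeR FDR 0.000841), and UT did not pass the test against UN (-0.34 ± 0.75, SE, edgeR FDR 0.786). In bladder it was 2.86 to 12.9 CPM in the 3 untreated mice and 5.48 to 166 CPM in the 9 BBN mice (3.71 ± 1.13, SE, edgeR FDR 0.0563).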
